A study of Homo sapiens with 6 samples.

Results

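FOXF1, FOXF2 and FOXL1 are forkhead transcription factors of the gut mesenchyme, and their transcripts were followed in human colon fibroblasts given sonic hedgehog (SHH). Probe sets were taken as members where 1 of the symbol columns of the authors' deposited table of names gave 1 of these 3 symbols, which found 1 probe set for each gene, 3 of 54613 on the arrays and 3 of 1644 genes with a usable name. That table holds only the 2411 probe sets that differed between the same groups at p at or under 0.05 in the authors' own comparison, so the members were chosen by the p-value of the difference between these same groups. Levels and differences of these 3 genes are therefore given as a description, with no test. The cells were CCD-18Co, an established line described by the submitters as primary colon myofibroblasts, kept in medium with 0.1% bovine serum albumin. The treated group was 3 biological replicates given SHH at 1 ug/ml for 72 h, and the control group was 3 replicates recorded as untreated, which the deposited readme calls vehicle. No culture time is recorded for the controls. Each replicate was 1 single-colour Affymetrix array, and with 3 arrays per group every value has limited precision. All samples are of 1 cell line, and 1 dose and 1 time were measured.

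Forkhead factors bind DNA through a winged-helix domain. Hedgehog ligands of the gut are made by the epithelium and received by the mesenchyme beneath it, where binding to the receptor Patched releases Smoothened and leads to transcription by the GLI factors. In mice, Foxf1 and Foxf2 are closely related factors of the gut mesenchyme that respond to hedgehog signalling and are needed for normal growth of the gut wall, and Foxl1 marks subepithelial mesenchymal cells next to the crypts, which provide Wnt and other signals to the epithelium.

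FOXF1 and FOXL1 lie close to each other on chromosome 16, where the order of protein-coding genes in RefSeq is IRF8, FOXF1, MTHFSD, FOXC2 and FOXL1. FOXF2 lies on chromosome 6 with FOXQ1 and FOXC1 as the nearest protein-coding genes with a full symbol, which are also forkhead genes. Of the 3 members, the RefSeq table of promoter windows used here held 1, that of FOXF2. The FOXF2 window is shown as the regulatory sequence of a member, and a stretch of a PTCH1 window as an example of the GLI pattern searched. The FOXF2 window is chr6:1389326-1389625 on the plus strand (GRCh38.p14, 250 bases before to 50 bases after the annotated start), with capitals for the GC box GGGCGG, a pattern bound by Sp1-like factors. The PTCH1 stretch is chr9:95509400-95509468 on the minus strand of the same build, with capitals for the GLI pattern, which begins 172 bases before that annotated start.
FOXF2: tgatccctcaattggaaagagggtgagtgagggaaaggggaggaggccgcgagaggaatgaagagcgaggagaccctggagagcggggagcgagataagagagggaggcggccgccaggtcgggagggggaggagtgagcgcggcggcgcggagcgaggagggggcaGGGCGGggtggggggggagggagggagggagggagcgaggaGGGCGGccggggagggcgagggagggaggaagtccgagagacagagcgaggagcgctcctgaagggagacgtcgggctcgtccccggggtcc
PTCH1: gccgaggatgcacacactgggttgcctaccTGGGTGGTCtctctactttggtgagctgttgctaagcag
The FOXF2 window held 2 GC boxes, a pattern found on either strand in 44.95% of all 35116 windows of this length. Its share of G and C was 71.0%, against a median of 58.7% over all windows. The letters TGGGTGGTC or their reverse complement GACCACCCA, a form of the GLI motif, were not in the FOXF2 window, and stood in 0.24% of all windows and in 1 of the 5 PTCH1 windows. The forkhead pattern GTAAACA, or TGTTTAC on the other strand, was not in the FOXF2 window either, and stood in 3.42% of all windows. No match says only that these letters are not in this window.

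FOXF1 was bright without the ligand and slightly brighter with it. Its signal was 10131, 10430 and 10792 on the untreated arrays and 12506, 12933 and 13308 on the SHH arrays, on the linear scale of the deposited values. Every SHH array lay above every untreated array, by a factor of at least 1.16 and at most 1.31. Means were 10451 ± 331 without and 12916 ± 401 with the ligand (SD, n = 3 each). The log2 difference was 0.31 ± 0.10 (moderated SE of the limma fit, pooled in part over all probe sets), or 1.24-fold, on log2 of signal plus a pseudocount of 16, with SHH minus untreated as the direction. The authors' deposited table runs the other way, untreated minus SHH, and its signs are turned here. The replicates of FOXF1 varied by 3.17% of their mean in untreated and 3.11% in SHH-treated cells.

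FOXF2 was also bright without the ligand and had a larger difference than FOXF1. Its signal was 2871, 2958 and 2991 on the untreated arrays and 7885, 7015 and 7279 on the SHH arrays. The groups did not overlap, and the lowest SHH array was 2.35 times the highest untreated array. Means were 2940 ± 61.9 without and 7393 ± 446 with the ligand (SD, n = 3 each), a log2 difference of 1.32 ± 0.11 (moderated SE), or 2.50-fold. Untreated replicates varied by 2.11% of their mean and SHH replicates by 6.03%.

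FOXL1 was near the bottom of the arrays without the ligand. Its signal was 4.05, 4.92 and 12.2 on the untreated arrays and 166, 97.0 and 121 on the SHH arrays. The groups did not overlap, and the lowest SHH array was 7.96 times the highest untreated array. On the untreated arrays between 2.32% and 12.3% of all probe sets were at or below the FOXL1 signal, and on the SHH arrays between 49.2% and 59.0% were. The files used here hold no detection calls, so whether the signal was above the background of the array is not known for either group. Means were 7.05 ± 4.47 without and 128 ± 34.9 with the ligand (SD, n = 3 each), and the replicates varied by 63.4% and 27.3% of their mean. The log2 difference was 2.63 ± 0.23 (moderated SE) at the pseudocount of 16. It grew to 4.10 when 1 was added to the signals instead, and shrank to 1.42 when 64 was added. Without a pseudocount, as in the authors' deposited table, it was 4.32. The direction held at each of these pseudocounts, while the fold went from 2.68 to 20.0. The same choice left FOXF1 between 0.30 and 0.31 and FOXF2 between 1.31 and 1.33 on the log2 scale.

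**Figure D1:**
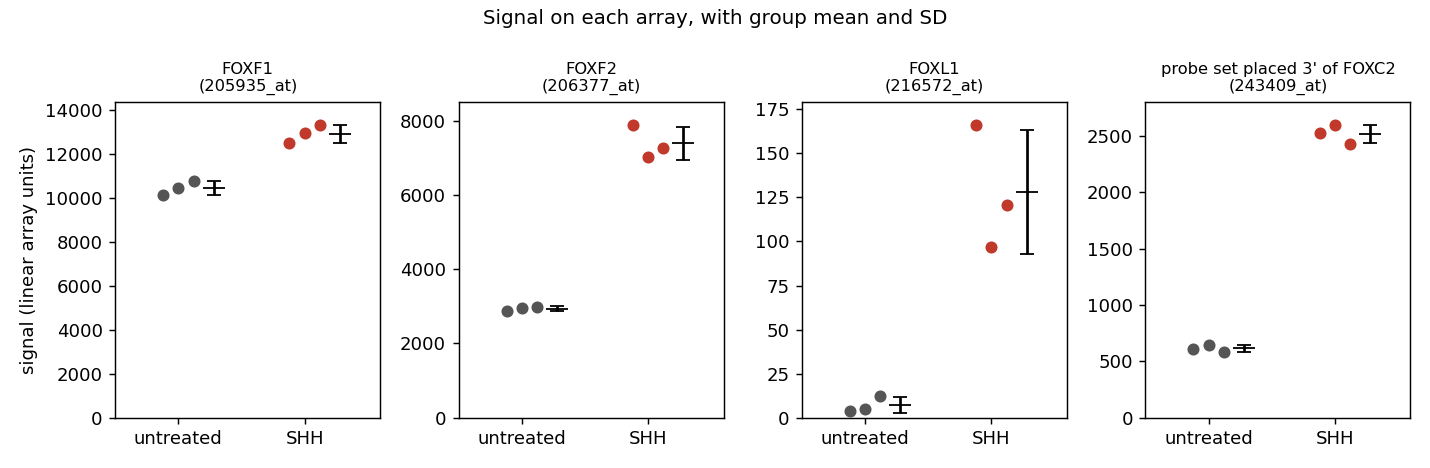
Signal in linear array units (y axis, from 0, with its own scale in each panel) on the 3 untreated arrays (grey) and the 3 SHH arrays (red) for FOXF1, FOXF2, FOXL1 and the probe set that the authors place 3' of FOXC2; the black mark is the group mean with its SD. In every panel the SHH arrays lie above the untreated arrays, and untreated FOXL1 signals lie between 4.05 and 12.2.

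Another probe set, singled out after its values were seen, bears on FOXL1. This probe set carries no symbol of the array annotation. The authors' own annotation marks it as 3' of FOXC2, the gene next to FOXL1 on chromosome 16, and the internal gene identifier beside it is the one that they give FOXL1. In the deposited table of names, 8 of 1691 such identifiers stand beside more than 1 symbol. Its signal was 612, 644 and 586 on the untreated arrays and 2522, 2594 and 2430 on the SHH arrays. The means were 614 ± 29.0 and 2516 ± 82.4 (SD, n = 3 each), a log2 difference of 2.01 ± 0.10 (moderated SE), or 4.02-fold. Its direction was that of the FOXL1 probe set, its signals were well inside the range of the arrays in both groups, and its replicates varied by 4.73% and 3.28% of their mean. Which transcript it measures is not settled by the files used here, and it was not counted as a member.

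The values that chose the members are those of the authors' deposited table, a Cyber-T comparison. For FOXF2 the authors' deposited table gives p = 0.000129 and a q-value of 0.417, and it stands at rank 13 by p among the probe sets that were higher with SHH. For FOXL1 the authors' deposited table gives p = 0.00272, a q-value of 0.586 and rank 178. FOXF1 was the member nearest to the threshold, with p = 0.0179, a q-value of 0.991 and rank 570 in the authors' deposited table. The largest p among probe sets that received a name was 0.0499 in the authors' deposited table. Probe sets with p above 0.05 in that comparison have no name here. Further probe sets of the same 3 genes could thus be on the arrays without a name.

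Of all 54613 probe sets, 67 passed limma at the adjusted threshold of 0.05, which is 0.123% of them, with 45 higher (0.0824%) and 22 lower (0.0403%). Of the 3 members, FOXF2 and FOXL1 were among the 45 and FOXF1 was not, and since the members were named by this same contrast nothing is read from that count. Every SHH array lay above every untreated array in 6.97% of all probe sets and below in 10.3%. All 3 members were among the former, and nothing is read from that either, for the same reason. The median log2 difference over all probe sets was -0.047. Arrays correlated with each other at r between 0.9669 and 0.9701 within groups and between 0.9649 and 0.9668 across groups (across probe sets, log2 scale), and no array stood apart.

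The untreated signal and the difference with SHH ran in opposite orders over the 3 members, with FOXF1 brightest and least different and FOXL1 dimmest and most different on the log2 scale. On the linear scale the order of the differences was another, with 4453 signal units for FOXF2, 2465 for FOXF1 and 121 for FOXL1. Signals of different probe sets are not transcript levels on 1 scale, so these orders are of the array signals, and 3 genes give no trend to test. When all probe sets were divided into 10 equal groups by untreated signal, FOXF1 and FOXF2 fell into the brightest, from 1696 to 32854, where the median log2 difference was 0.03 and the range from the percentile 5 to the percentile 95 went from -0.33 to 0.34. FOXF1 lay inside that range and FOXF2 outside it. FOXL1 fell into the dimmest group, from 0.333 to 13.6, where that range went from -0.29 to 0.74, and lay above it. The members were named by their p in this contrast, while the ranges are of all probe sets. The untreated signal that set the groups also enters the difference. Nothing is read from these positions.

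**Figure D2:**
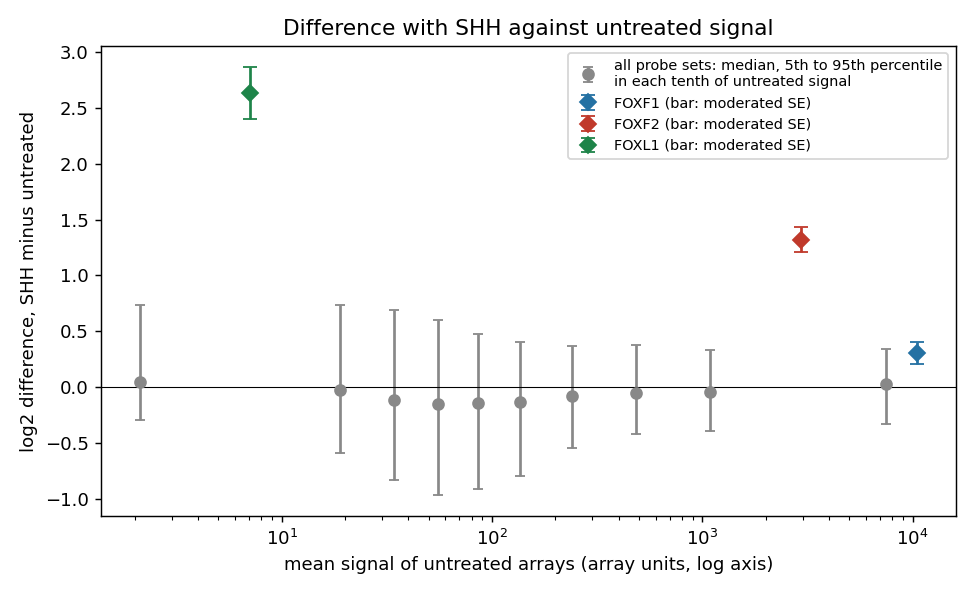
Log2 difference, SHH minus untreated (y axis), against the mean signal of the untreated arrays (x axis, log scale). Coloured diamonds are the 3 genes with the moderated SE, and grey points and bars are the median and the range from percentile 5 to percentile 95 of all probe sets in 10 equal groups of untreated signal; FOXF1 lies inside the bar of the brightest group (-0.33 to 0.34), FOXF2 and FOXL1 above theirs.

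Ratios between the members within an array do not change when an array is multiplied by a constant. The ratio of FOXF2 to FOXF1 signal was 0.283, 0.284 and 0.277 on the untreated arrays and 0.630, 0.542 and 0.547 on the SHH arrays. The groups did not overlap, and the mean ratio was 2.04 times as large with SHH, so FOXF2 differed more than FOXF1 on the log2 scale, by 1.02. The ratio of FOXL1 to FOXF2 went from between 0.00141 and 0.00408 on the untreated arrays to between 0.0138 and 0.0210 on the SHH arrays. No fold is given for it, since the untreated FOXL1 signal may lie at the background of the arrays. Scaling each array to its median put the log2 differences at 0.39 for FOXF1, 1.41 for FOXF2 and 2.72 for FOXL1, and quantile normalization at 0.21, 1.28 and 2.70. FOXF1 thus moved by more than the spread between its own replicates when the normalization changed, without a change of direction.

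**Figure D3:**
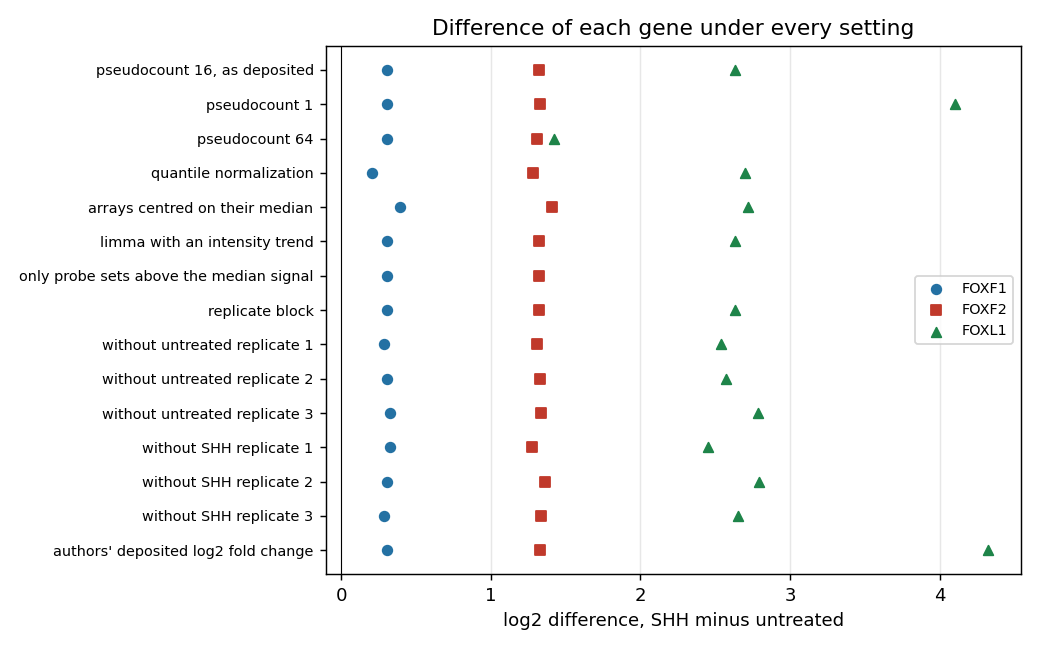
Log2 difference, SHH minus untreated (x axis), of FOXF1 (circles), FOXF2 (squares) and FOXL1 (triangles) under each processing setting (y axis). FOXF1 stays between 0.21 and 0.39 and FOXF2 between 1.28 and 1.41, while FOXL1 runs from 1.42 with a pseudocount of 64 to 4.32 in the authors' deposited table; the filter on dim probe sets removes FOXL1.

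The named genes whose pattern over the 6 arrays was most like each member were ranked by Pearson's r of log2 signal, as a measure of likeness only. For FOXF1 they were CREB3L1 (r = 0.9986), PVR, YBX3, ERMP1 and BASP1 (r = 0.9951). CREB3L1 encodes a membrane-bound transcription factor of the secretory pathway and PVR a cell adhesion receptor. For FOXF2 they were the drug efflux transporter ABCG2 (r = 0.9993), a gene listed as FLJ40126, RPS27L, MRPL14 and the solute carrier SLC12A8 (r = 0.9972). For FOXL1 they were RPS27L (r = 0.9963), LOC90410, LOC387758, EXTL2 and FLJ40126 (r = 0.993), so RPS27L and FLJ40126 stood on the lists of both FOXF2 and FOXL1. Between the members r was 0.992 for FOXF2 and FOXL1, 0.964 for FOXF1 and FOXF2 and 0.957 for FOXF1 and FOXL1. The 6 arrays fall into 2 groups, so r is near 1 for every gene higher with SHH that separates them with little spread. Of the 1643 other named genes, 220, 283 and 228 had r of 0.95 or more with FOXF1, FOXF2 and FOXL1. Genes that are alike in r differ in size: RPS27L had a log2 difference of 0.33 ± 0.10 and ABCG2 of 1.52 ± 0.11 (moderated SE).

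Other forkhead genes with a name all lay in the opposite direction to the members. Of 41 further genes of the family 4 had a name, FOXD1, FOXE1, FOXN3 and FOXP1, all 4 lower with SHH, with a median log2 difference of -0.41. Of all 1644 named genes, 823 were lower by the brightest probe set, with a median of -0.24. Nothing is read from the shared direction of these 4 forkhead genes. By the brightest probe set of each gene, none of the 4 passed limma's adjusted threshold. All 4 had an unadjusted limma p under 0.05, as had 1401 of all 1644 named genes through the way names were given. FOXE1 passed limma with an intensity trend, as did 652 of the 1644. Over all probe sets these shares were 9.72% and 1.86%. Among their dimmer probe sets, 2 of FOXN3 passed with the trend as well. All 4 also lay lower after quantile normalization and after median centring of the arrays. FOXE1, known as a thyroid transcription factor, had signals of 50.1, 29.9 and 47.7 on the untreated arrays and 4.93, 8.18 and 4.96 on the SHH arrays. Its log2 difference was -1.40 ± 0.18 (moderated SE; limma adjusted p = 0.0763, and 0.0392 with the trend). The SHH signals of FOXE1 lay within the range of the untreated FOXL1 signals, 4.05 to 12.2. Without detection calls, whether these FOXE1 signals were above the background of the arrays is not known. The size of the FOXE1 difference depends on the pseudocount, as for FOXL1, and its value at other pseudocounts is not given here. FOXN3, a repressor that acts at cell cycle checkpoints, had 4 named probe sets, with log2 differences of -0.61, -0.62, -0.40 and -0.48, and its brightest had means of 8917 ± 1392 without and 6707 ± 416 with the ligand (SD, n = 3 each). In that order limma gave FOXN3 adjusted p = 0.167, 0.25, 0.494 and 0.487, and 0.00215, 0.0137, 0.142 and 0.206 with the trend. FOXP1, a widely expressed repressor, had 2 named probe sets, at -0.32 and -0.28, and FOXD1, a factor of kidney stroma, lay at -0.42 ± 0.15 (limma adjusted p = 0.487 for the brighter FOXP1 probe set and 0.465 for FOXD1). These genes too were named by their p in this contrast, and forkhead genes without a name are not described.

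Of the 10 other genes in the list of chromosomal neighbours, 1 had a name, IRF8, an interferon regulatory factor of blood cells that lies before FOXF1. Its signal was 483 ± 34.0 without and 857 ± 190 with the ligand (SD, n = 3 each), a log2 difference of 0.79 ± 0.18. It missed limma's threshold (adjusted p = 0.248) and passed once an intensity trend was fitted (adjusted p = 0.0258). FOXC1 and FOXQ1, next to FOXF2, and the non-coding FENDRR, next to FOXF1, had no name here.

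**Figure D4:**
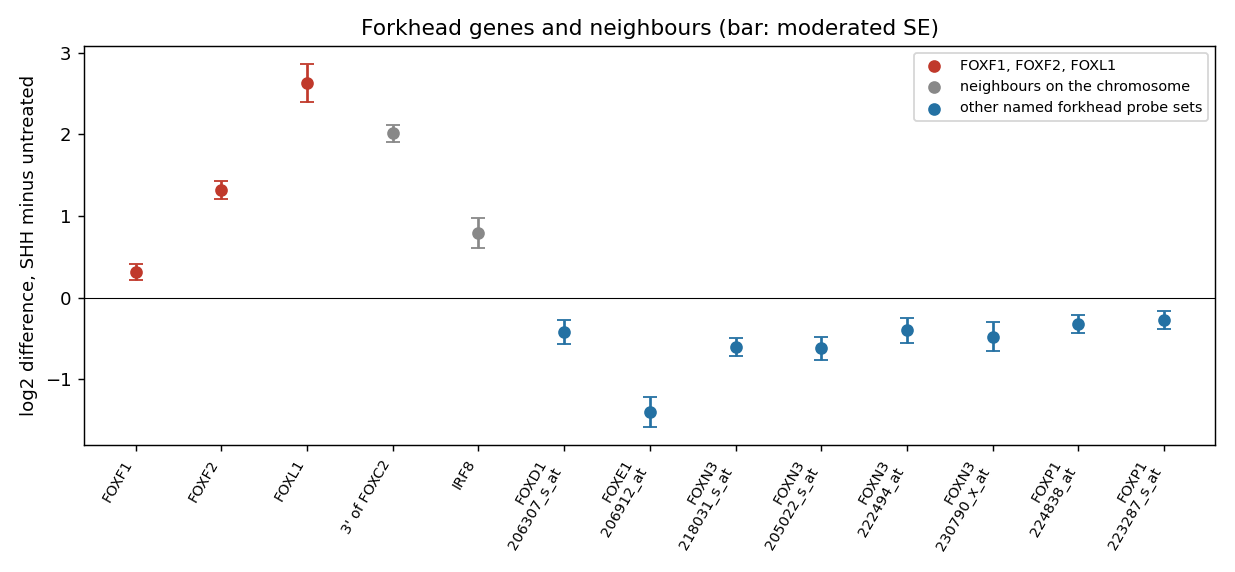
Log2 difference, SHH minus untreated (y axis), with the moderated SE, for the 3 members (red), the probe set that the authors place 3' of FOXC2 and IRF8 (grey) and the 8 named probe sets of 4 other forkhead genes (blue). The red and grey points lie above 0 and the blue points between -1.40 and -0.28.

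Among the hedgehog pathway genes and its common targets, apart from the members, names were at hand for 14 of 37. SHH arrays averaged higher for 9 of the 14 and lower for 5, and their median log2 difference was 0.31. The receptor PTCH1 rose and the co-receptor GAS1 fell by limma, and the other 12 did not pass. These 14 genes too were named by their p in this contrast, and nothing is read from the counts. Of all 1644 named genes, 821 were higher and 823 lower by the brightest probe set, and limma called 41. PTCH1 signal was 1455, 1343 and 1306 on the untreated arrays and 8517, 8292 and 9095 on the SHH arrays, a log2 difference of 2.64 ± 0.11 (moderated SE; limma adjusted p = 0.0249). GAS1 went from 2386 ± 150 to 998 ± 53.7 (SD, n = 3), a log2 difference of -1.24 ± 0.11 (limma adjusted p = 0.0468). GLI1, the transcription factor used as the standard readout of the pathway, had signals of 151, 49.7 and 141 on the untreated arrays and 660, 592 and 771 on the SHH arrays. Its groups did not overlap, and at a log2 difference of 2.52 ± 0.38 it missed the threshold (limma adjusted p = 0.110). GLI1 passed once an intensity trend was fitted (limma adjusted p = 0.00355). BMP2, a secreted growth factor, lay at 0.87 ± 0.11 and SFRP1, a secreted Wnt inhibitor, at 0.59 ± 0.10 (limma adjusted p = 0.0761 and 0.160). With the trend, limma gave BMP2 and SFRP1 adjusted p = 0.00035 and 0.00235, and 652 of all 1644 named genes passed. Of the members, FOXL1 had a difference near that of PTCH1 and GLI1 at a pseudocount of 16, and FOXF2 one between those of BMP2 and GLI1.

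Of 30 genes linked to FOXF1, FOXF2 or FOXL1 in the mesenchyme of gut or lung, mostly in mice, names were at hand for 11. SHH arrays averaged higher for 8 of the 11 and lower for 3, and their median log2 difference was 0.47. They were named by their p in this contrast, as were all 1644 named genes, of which 821 were higher and 823 lower with a median of -0.24 by the brightest probe set, and nothing is read from the count. Signal of NOG, the BMP antagonist noggin, fell from 479 ± 18.4 to 220 ± 8.94 (SD, n = 3 each). The log2 difference of NOG was -1.07 ± 0.10 (limma adjusted p = 0.0496), and no other of the 11 passed. CXCL12, a chemokine of stromal cells, lay at -1.07 ± 0.11 and the BMP antagonist GREM1 at -0.97 ± 0.12 (limma adjusted p = 0.0607 and 0.0729). With the trend, limma gave CXCL12 and GREM1 adjusted p = 0.000104 and 0.000323. BMP2 and SFRP1 are on this list too, with the values above. The calls on PTCH1, GAS1 and NOG ended without any 1 of the 6 arrays, since limma then called 0 probe sets of all 54613, with 4411 to 5180 at an unadjusted p under 0.05. GAS1 and NOG also missed the threshold after median centring of the arrays, and PTCH1 did not.

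The labelled cell type could not be checked fully against marker genes, because a marker has a name here only if it differed between the groups at p at or under 0.05 in the authors' comparison. A marker without a name may still be expressed. For a marker with a name, level and direction are those of its brightest named probe set. Other probe sets of the same gene could be on the arrays without a name. Of 15 markers of fibroblasts and myofibroblasts 6 had a name, all lower with SHH and none past limma's threshold, with untreated means between 395 for COL3A1 and 4690 for PDGFRB and a median log2 difference of -0.58. The 6 had an unadjusted limma p under 0.05, as had 1401 of all 1644 named genes through the way names were given, and 4 passed limma with an intensity trend, as did 652 of the 1644. Of the 1644, 823 were lower by the brightest probe set, with a median of -0.24. Nothing is read from the count of lower markers. None of 6 endothelial markers, 1 of 8 epithelial markers (KRT18, at 5677 ± 349 untreated), 1 of 6 immune markers (CD14, at 161 ± 53.7 untreated) and 1 of 6 glial and neuronal markers (UCHL1, at 3998 ± 154 untreated) had a name (SD, n = 3). Smooth muscle markers had names for 5 of 7, with 3 higher and 2 lower, and markers of pericytes and interstitial cells of Cajal for 4 of 5, with 1 higher and 3 lower. The part of these genes in the differences of the members was not tested. In whole cultures, fewer cells of a type and less RNA per cell cannot be told apart.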

How the data were processed

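The members and gene lists were chosen with earlier results of these data known. RNA was labelled with biotin from a T7-linked oligo(dT) primer for Affymetrix arrays, per the labels' protocols. The authors deposited 1 linear intensity per probe set and array; the trimmed means (2% from each end) lie between 498.1 and 498.2, and for probe summary, scaling and genome build the sources used here give nothing. Medians per array were 94.4 to 111. The authors' deposited comparison gives a t statistic (a score), a p-value, a q-value and a log2 fold change per probe set, by Cyber-T per the deposited readme; its per-array values equal the value table. Names came from that table: 2148 of its 2411 probe sets had 1 symbol, 109 only a symbol with a position mark, 58 symbols that disagree, 10 several and 86 none. Old symbols were updated through RefSeq (GRCh38.p14): 1464 were current, 415 updated and 269 kept. The brightest named probe set stands for a gene.

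Limma 3.58.1 in R 4.3.3 (lmFit, eBayes, two-sided, Benjamini-Hochberg over 54613 probe sets, threshold 0.05) was run on log2(intensity + 16) with no filter, with SHH (3) against untreated (3). It was also run on simulated data with known shifts. Only probe sets above the median signal were shifted there, so shifts of dim probe sets such as FOXL1 were not tried. Tables were made in Python 3.11.15 with pandas 2.3.3. No label ties replicates to separate days or batches, so p-values measure the spread between these cultures. Alternatives were other pseudocounts, quantile normalization, median centring, an intensity trend, a filter on dim probe sets, a replicate block and leaving out each array. Genes named in the text are the members, the 5 genes most like each, all named forkhead genes and neighbours, PTCH1 and GLI1, and from the other lists those called plus up to 3 by smallest p; IRF8 counts as a neighbour. Marker genes named are examples.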

Additional observations from a re-analysis of the deposited data

How the results depend on the processing

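The log2 differences of FOXF1, FOXF2 and FOXL1 kept their direction under every setting tried. Leaving out 1 array at a time gave 0.28 to 0.33 for FOXF1, 1.28 to 1.36 for FOXF2 and 2.45 to 2.79 for FOXL1. FOXF1 moved to 0.21 with quantile normalization and 0.39 with median centring, FOXF2 to 1.41 with median centring, and FOXL1 to 4.10 with a pseudocount of 1, 1.42 with a pseudocount of 64 and 4.32 in the authors' deposited table; a larger pseudocount shrinks the difference of a dim probe set by construction. The filter on dim probe sets removed FOXL1, so it has no value there, and since each member has 1 named probe set, the mean over probe sets gave no further value. The 67 probe sets called by limma became 0 at pseudocount 1 (5009 at an unadjusted p under 0.05), 295 at pseudocount 64, 34 with median centring, 1014 with an intensity trend, 558 with the filter and 0 without any 1 array. Of the lists, members included, the forkhead family and the neighbours each had 2 genes called, which became 0 with a pseudocount of 1, 1 with the filter and 0 without any 1 array. The hedgehog list had 4 called, and 0 with a pseudocount of 1, 10 with the trend and 0 without any 1 array. The list linked to the members had 1 called, and 0 with a pseudocount of 1, 4 with a pseudocount of 64, 0 with median centring, 7 with the trend, 6 with the filter and 0 without any 1 array. The cause of these changes was not tested.

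With the replicate block limma called 0 probe sets (4746 at an unadjusted p under 0.05), and 0 in each list. Same-numbered arrays did not deviate together: the correlations of their deviations from the group means were 0.0105, 0.0193 and -0.0147, so the samples share only a number. The block left the differences of the members at 0.31, 1.32 and 2.63.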
